A study of Arabidopsis thaliana with 6 samples.

Results

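Poly(A) site clusters that were read only in light-treated Arabidopsis seedlings are described here. A cluster is a group of neighbouring cleavage positions on 1 strand, counted by 3'READS+, a method that sequences the 3' ends of polyadenylated RNA. The clusters were chosen by their counts: 0 reads in each of the 3 Dark libraries, reads in all 3 Light libraries and at least 30 reads summed over Light. This rule took 382 of the 217870 clusters in the deposited table. Because these counts chose the clusters, their difference between Light and Dark is given as a description, without a test.

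The RNA came from seedlings of Arabidopsis thaliana, ecotype Col 0 (the wild type), grown on agar with Murashige and Skoog medium under constant white light for 1 to 2 weeks. All seedlings then spent 48 h in darkness; the Light group (3 libraries) was next given light for 6 h, and the Dark group (3 libraries) stayed dark for the same 6 h. The design addresses which RNAs, and which of their 3' ends, differ once seedlings return to light. Separate plates or plantings are not stated for the replicates, and a p-value here measures spread among libraries that may be technical.

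A poly(A) site is where the nascent transcript is cut and given its poly(A) tail. Most plant genes have several such sites, and the choice among them sets where the RNA ends, and with it the length of the 3' untranslated region or, for a site far upstream, the coding sequence. In seedlings, light acting through phytochromes and cryptochromes turns on genes for photosynthesis, flavonoid sunscreens and growth. Within protein-coding genes, light-only clusters are of 2 kinds here, those of genes with no reads at all in darkness and those of genes whose reads in darkness lay at other sites.

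Library totals were 13.2 to 13.5 M reads in Light and 13.4 to 14.5 M in Dark, and 97.1% of reads were assigned to protein-coding genes. After normalization the Dark libraries had effective sizes of 11.4 to 12.2 M reads against 14.8 to 15.6 M for Light, so a count of 0 in Dark was read at a somewhat smaller effective depth. Light libraries held reads in 124530 to 127654 clusters and Dark libraries in 104440 to 110338. RNA was taken from whole seedlings, in which fewer cells of a type and less RNA per cell cannot be told apart.

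Of the 47588 clusters with at least 30 Light reads and reads in every Light library, the 382 without a Dark read were 0.803%. The same rule turned round, with 0 reads in Light, took 65 of 41448 clusters, or 0.157%. Most of the 382 were small. Their summed Light reads ran from 30 to 1160 with a median of 44.5; 156 clusters had 30 to 39 reads and 41 had 100 or more. Together they held 25619 reads, which is 0.0639% of all Light reads. Just outside the rule lay 358 clusters with 20 to 29 Light reads and no Dark read, and 343 clusters with exactly 1 Dark read, whose Light reads had a median of 45 and a maximum of 708. Set against a floor of 3 counts over the Dark group, the level in Light was 7.65-fold to 296-fold higher, with a median of 11.4-fold. The lowest of these values follows from the minimum of 30 Light reads. The floor does not allow for the choice of clusters by their 0 in Dark, so these folds are not strict lower bounds. The highest of the 3 Light libraries exceeded the lowest by a median factor of 1.77, and by a factor of 35 at most. All lay in the nuclear genome: 96 on chromosome 1, 59 on chromosome 2, 76 on chromosome 3, 71 on chromosome 4 and 80 on chromosome 5.

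How far the 0 in Dark held in a library that did not take part in the choice was measured by leaving out 1 library at a time. Chosen without Dark replicate 1, 628 clusters met the rule, and 382 of them (60.8%) also had 0 reads in that library. Without Dark replicate 2 the rule took 580 clusters, of which 65.9% had 0 reads there, and without Dark replicate 3 it took 643, of which 59.4% did. The reads in the library left out did not exceed 9 in any cluster and averaged 0.828, 0.745 and 0.827. The Light libraries averaged 22.6 to 23.3 reads in these clusters, but they had taken part in the choice. Leaving out a Light library left 188, 204 and 207 clusters, and the library not used had no read in 1, 0 and 2 of these. It averaged 33.6, 30.4 and 28.5 reads in them. Reads in light were thus found again in nearly all clusters, and an exact 0 in darkness in 59.4% to 65.9%. Which clusters met the rule depended on every library, as these counts show. Summing clusters within 50 nt of each other on a strand before applying the rule left 141 sites without a Dark read.

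Within protein-coding genes lay 342 of the clusters, in 280 genes. Of these genes, 234 held 1 light-only cluster, 35 held 2 and 11 held 3 or more, up to 5. They were divided by the Dark reads of the whole gene. In 39 genes no cluster had a Dark read, and these silent genes held 44 light-only clusters. The other 298 clusters belonged to genes read in both conditions. For each of these, the share of the gene's Light reads was multiplied by the gene's Dark reads, which gives the Dark reads to be seen at an unchanged share. This number was under 3 for 174 clusters in 128 genes, where a 0 cannot be told from too few reads, and 3 or more for 124 clusters in 118 genes. Outside resolved protein-coding genes lay the remaining 40. Leaving out any 1 library moved the number of silent genes to between 25 and 65 and that of clusters with 3 or more to between 47 and 210. The most read cluster of a gene over all 6 libraries is called its main site.

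**Figure D1:**
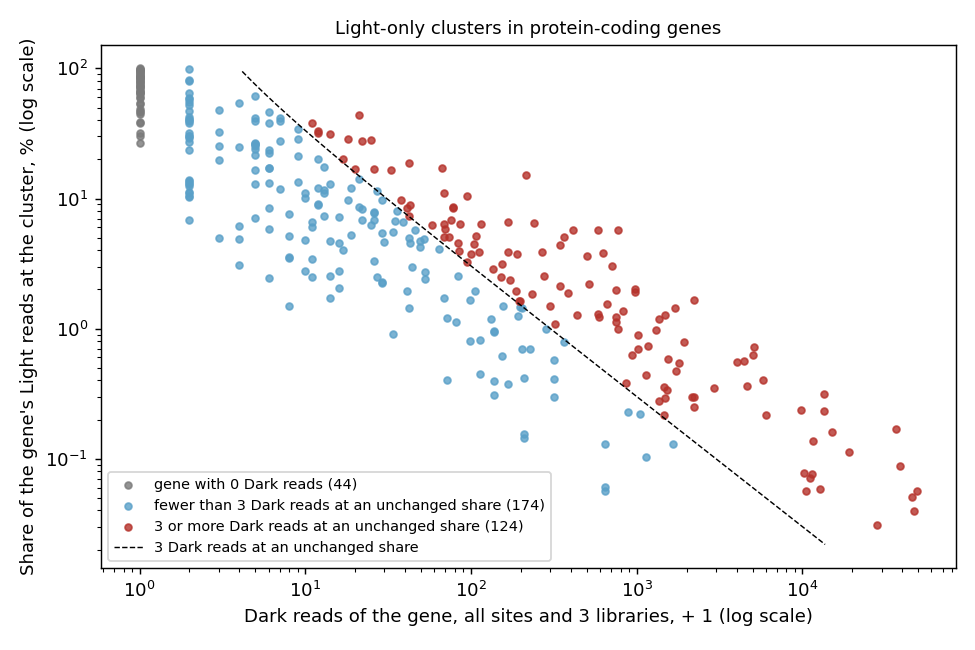
Each point is 1 of the 342 light-only clusters in protein-coding genes; the horizontal axis gives the gene's Dark reads summed over 3 libraries plus 1, and the vertical axis the cluster's share of the gene's Light reads in percent, both on log scales. Grey points are the 44 clusters of genes silent in Dark, blue points the 174 clusters with fewer than 3 Dark reads at an unchanged share, and red points, above the dashed line, the 124 clusters with 3 or more.

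Genes silent in darkness came first. Of 16869 genes with at least 30 Light reads, 62 had no Dark read (0.368%), and 39 of these held a light-only cluster; no gene with at least 30 Dark reads was without Light reads (0 of 15517, 0.0%). The 39 genes had 39 to 372 Light reads, with a median of 82. Set against the floor of 3 counts, their level was 9.95-fold to 94.9-fold higher in Light, with a median of 20.9-fold. Light-only clusters held a median of 83.8% of a silent gene's Light reads, and 34 of the genes had a single one. By counting error alone, a count of 0 among the 42.4 M Dark reads allows up to 3 counts. When genes with up to 3 Dark reads counted as silent, the number rose to 70 genes with 84 clusters.

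Among the 12 silent genes with the most Light reads, several act in the chemistry of the seedling's defence and pigments. The highest was scpl10 (AT2G23000), an acyltransferase that adds sinapoyl groups to anthocyanins, with 122, 125 and 125 reads in Light replicates 1, 2 and 3. It ended at 2 light-only clusters on chromosome 2, at position 9795919 with 66, 84 and 71 reads and at position 9795819 with 53, 38 and 50. The 3 libraries differed little, and the site 100 nt upstream was the smaller in each. GSTF11 (AT3G03190), a glutathione transferase of aliphatic glucosinolate synthesis, ended almost wholly at 1 cluster, at position 735986 of chromosome 3, with 114, 125 and 81 reads. That cluster held 97.3% ± 1.96 of its reads (SD, n = 3). AT5G26220, a gamma-glutamyl cyclotransferase of glutathione breakdown, had 87, 102 and 73 reads at position 9162979 of chromosome 5. All Light libraries were far above the Dark value of 0 for each of these genes.

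A further 6 of the 12 have annotated products. ELIP2 (AT4G14690), a thylakoid protein of the early light-induced family, which binds free chlorophyll, had 106, 70 and 59 reads at position 8419226 of chromosome 4. That single cluster carried 98.0% ± 1.77 of the gene's reads (SD, n = 3), and replicate 1 was the highest. SP1L5 (AT4G23496), a SPIRAL1-like protein of cortical microtubules, had 94, 82 and 55 reads, of which 219 lay in clusters at positions 12257717 and 12257666 of chromosome 4. AT2G21210, a SAUR gene of the early auxin-responsive family, had 49, 55 and 76 reads at position 9085345 of chromosome 2, with the order of libraries opposite to that of SP1L5. GA3OX2 (AT1G80340), which makes bioactive gibberellin, had 55, 33 and 31 reads, of which 85 lay in clusters at positions 30200609 and 30200549 of chromosome 1. HRGP1 (AT3G54590), a hydroxyproline-rich glycoprotein of the cell wall, had 43, 40 and 42 reads, and 120 of them lay at positions 20208610 and 20208675 of chromosome 3. LTP4 (AT5G59310), a lipid transfer protein, had 69, 57 and 31 reads, all at position 23925106 of chromosome 5.

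The last 3 of the 12 were AT4G16880, AT5G60650 and AT2G15020. At position 9496194 of chromosome 4, AT4G16880 had 119, 79 and 110 reads. AT5G60650 had 47, 44 and 57 reads at position 24374192 of chromosome 5. AT2G15020 had 56, 61 and 41 reads over the gene, of which 95 lay in its light-only cluster at position 6491591 of chromosome 2. The level of these 12 genes in Light was between 2.60 and 8.13 CPM (counts scaled by each library's effective size).

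**Figure D2:**
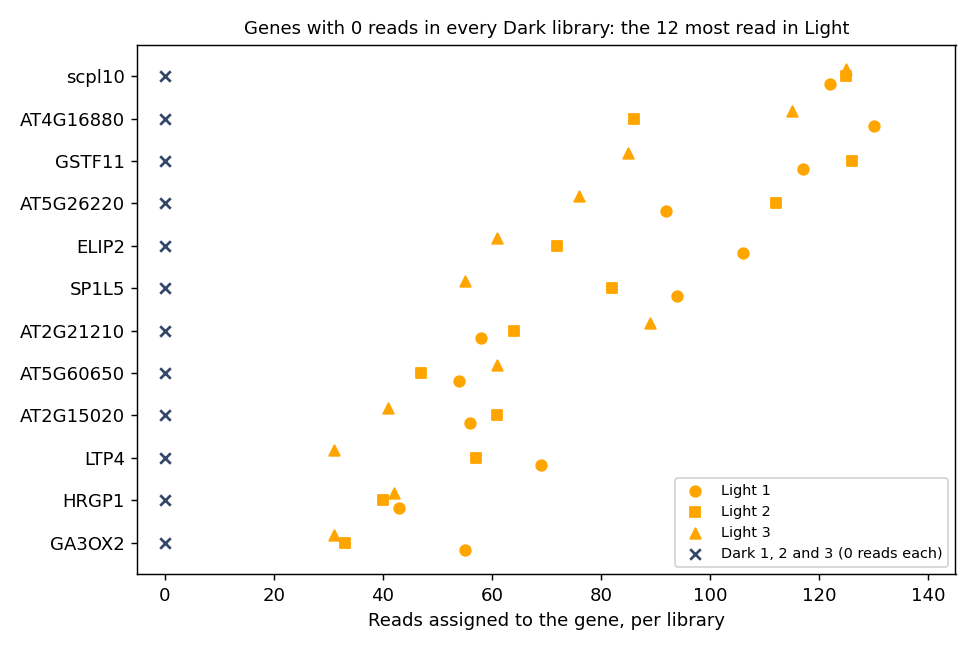
Reads assigned to each of the 12 most read silent genes, per library; orange circles, squares and triangles are Light replicates 1, 2 and 3, and crosses stand for the 3 Dark libraries, all at 0. The Light values run from 31 to 130 reads and no gene's Light libraries approach 0.

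Some of the other 27 silent genes have known roles and were singled out after their values had been seen. WEE1 (AT1G02970), a kinase that holds the cell cycle under DNA damage, had 42, 44 and 31 reads. PHR1 (AT1G12370), a photolyase that uses light to repair pyrimidine dimers, had 27, 25 and 12. D27 (AT1G03055), a carotenoid isomerase of strigolactone synthesis, had 17, 22 and 23. Each had reads in every Light library, and PHR1 varied most among them. NRT2:1 (AT1G08090), a high-affinity nitrate transporter, had 37, 18 and 26 reads, and COR15B (AT2G42530), a cold-regulated chloroplast protein, had 38, 28 and 29. CER4 (AT4G33790), a fatty acyl reductase that makes wax alcohols, had 22, 8 and 9. LCR67 (AT1G75830), a defensin-like protein, rested on 1 library: it had 39 reads in Light replicate 1, 2 in replicate 2 and 1 in replicate 3.

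Genes of aliphatic glucosinolate synthesis, the pathway that builds the methionine-derived defence compounds of cabbage relatives, held 19 light-only clusters in 10 of 22 listed genes. Of all 18216 genes with clusters, 280 (1.54%) held one; the lists were chosen with earlier results of these data known, so nothing is read from the difference in share. IPMI1 (AT3G58990), a small subunit of the isopropylmalate isomerase of side-chain elongation, had 5 of them and 1284, 1233 and 1211 reads in Light against 6, 2 and 5 in Dark. IPMI2 (AT2G43100), a second small subunit, had 424, 541 and 517 reads against 0, 0 and 3, with 2 light-only clusters that held 8.03% of its reads. CYP79F1 (AT1G16410), the cytochrome P450 that opens the core pathway, had 228, 189 and 216 reads in Light and 1 in Dark, and its 4 light-only clusters held 68.7% of its reads. Its near-identical neighbour CYP79F2 could share reads with it. In each of these genes every Light library lay far above every Dark library, and at an unchanged share no light-only cluster of theirs would have had more than 4.05 Dark reads.

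Other genes of the pathway held 1 or 2 light-only clusters each. CYP83A1 (AT4G13770), the following P450, had 1 light-only cluster at position 7990468 of chromosome 4 with 26, 41 and 57 reads, 3.26% ± 1.01 of the gene (SD, n = 3). BAT5 (AT4G12030), which carries keto acids into the plastid, had 35, 51 and 49 reads at position 7212832 of the same chromosome, 6.98% ± 1.36 of its reads. FMO GS-OX1 (AT1G65860), which oxidizes the side chain, had 2 light-only clusters with 68.3% of its reads and 51, 45 and 87 Light reads against 1 in Dark. The regulator MYB29 (AT5G07690) had 39, 39 and 50 reads against 1. GSTU20 (AT1G78370), a glutathione transferase, had a light-only cluster with 18, 7 and 9 reads in a gene with 15 Dark reads. SOT17 (AT1G18590), the sulfotransferase of the last core step, was the one whose gene was well read in darkness: it had 65, 92 and 74 Dark reads, and its light-only cluster at position 6399729 of chromosome 1 had 11, 14 and 12 Light reads where 4.25 Dark reads would be seen at an unchanged share. The level of the listed genes without a light-only cluster was tested, since the rule did not use them. Because the lists were chosen with earlier results of these data known, counts of calls per list are a description. Nothing is read from their difference from all genes, here or for the lists below. Of 11 tested, 10 were higher in Light and 0 lower by edgeR's quasi-likelihood test with Benjamini-Hochberg adjustment over all genes, with a median log2 change of 3.21. Among all 16775 genes tested, 37.4% were higher and 35.6% lower and the median log2 change was 0.04. A gene entered the test if enough libraries reached a minimum count, and in 943 of the 16775 the Light libraries alone reached it, so that the filter itself favoured a difference; 881 of them were called higher. Genes in which only some Dark libraries reached the minimum also entered through Light and are not among the 943. Named genes of both kinds are given here by their levels, without a p-value. Of the 11 listed genes 2 were of the first kind. BCAT4 (AT3G19710), MAM1 (AT5G23010), MAM3 (AT5G23020) and IPMDH1 (AT5G14200) were of the second. MYB28 (AT5G61420), the main regulator of the pathway, had 27.4 ± 2.54 CPM in Light against 0.369 ± 0.244 in Dark (SD, n = 3 each). CYP79F2 (AT1G16400), the near-identical neighbour of CYP79F1 and so not independent of the rule, had 13.2 ± 2.3 CPM against 0.0858 ± 0.0877.

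Flavonoid genes, whose products include anthocyanins and ultraviolet-absorbing flavonols, held 9 light-only clusters in 4 of 18 listed enzymes and 4 in 3 of 12 regulators. FLS1 (AT5G08640), the flavonol synthase, had 630, 472 and 318 reads in Light against 2, 0 and 3 in Dark. Its largest light-only cluster, at position 2805453 of chromosome 5, had 141, 105 and 74 reads and a steady 22.6% ± 0.557 of the gene (SD, n = 3), although the gene's total differed between the libraries. A further 3 clusters of FLS1, 74 nt upstream and 27 and 104 nt downstream of the most read site, brought the light-only share to 39.4%. F3H (AT3G51240), the flavanone 3-hydroxylase, had 604, 492 and 347 reads against 5, 0 and 4, with 3 light-only clusters, all downstream of its main site by 44 to 120 nt. CHIL (AT5G05270), a chalcone isomerase-like protein, had 1 light-only cluster with 15, 7 and 10 reads. UGT78D2 (AT5G17050), a flavonoid 3-O-glucosyltransferase, had 8, 11 and 15 reads at position 5607595 of chromosome 5, 214 nt downstream of its main site, where 3.78 Dark reads would be seen at an unchanged share.

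Among the regulators, MYB12 (AT2G47460), an activator of flavonol synthesis, had 109, 102 and 68 Light reads and 1 Dark read. Its main site at position 19479517 of chromosome 2 was itself light-only, with 61, 74 and 46 reads. MYB111 (AT5G49330), a related activator, had 8, 13 and 17 reads at its main site, position 19998824 of chromosome 5, and PAP1 (AT1G56650), the MYB activator of anthocyanin synthesis, had 10, 11 and 16 at position 21233648 of chromosome 1. Both genes had 1 Dark read in all. Of the 14 listed enzymes without a light-only cluster, 6 passed the filter on low counts, 2 of them through the Light libraries alone. All 6 were higher in Light, against 37.4% of all genes tested, and their median log2 change was 3.78. Chalcone synthase, TT4 (AT5G13930), had 184.8 ± 47.7 CPM in Light against 0.635 ± 0.317 in Dark (SD, n = 3 each), and yet no cluster of it met the rule. Its Dark libraries had 0.614, 0.962 and 0.328 CPM and did not all reach the minimum count. TT4 thus entered the test through Light, as did UGT75C1 (AT4G14090). LDOX (AT4G22880), which makes anthocyanidins, had 2.64 ± 0.397 CPM against 0.0292 ± 0.0506 and passed the filter through Light alone. Of 4 tested regulators, 2 were lower, TTG1 (AT5G24520; 2.66-fold) and MYBL2 (AT1G71030; 1.98-fold), the larger adjusted p being 1.76e-06. The other 2 were called higher but passed the filter through Light alone: EGL3 (AT1G63650) had 2.29 ± 0.466 CPM against 0.261 ± 0.155, and GL3 (AT5G41315) had 1.48 ± 0.294 against 0.307 ± 0.307 (SD, n = 3 each). EGL3 and GL3 each act with TTG1 in complexes that activate late anthocyanin genes, and MYBL2 represses such complexes.

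Light-harvesting and photoprotection genes held 12 light-only clusters in 7 of 27 listed genes, among them ELIP2, described above. CAB3 (AT1G29910), a chlorophyll a/b-binding protein of photosystem II, had 3006, 2665 and 3453 reads in Light and 70, 24 and 72 in Dark. At position 10472229 of chromosome 1, 52 nt downstream of its main site, it had 126, 110 and 120 Light reads, a share of 3.93% ± 0.396 (SD, n = 3), where 6.48 Dark reads would be seen at an unchanged share. CAB1 (AT1G29930), of the same family, was abundant in both conditions, with 12356 to 17585 reads in the Dark libraries; its light-only cluster at position 10478890 of chromosome 1 had 11, 14 and 8 reads, 0.0408% ± 0.0157 of the gene. At an unchanged share 18.6 Dark reads would be seen. CAB2 (AT1G29920) had 3 light-only clusters with 0.246% of its reads. The 3 CAB genes are near-identical neighbours, and how the authors' counting divided reads among them is uncertain.

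LHCA1 (AT3G54890), an antenna protein of photosystem I, had 13, 6 and 19 reads at position 20339465 of chromosome 3, where 7.89 Dark reads would be seen. NPQ4 (AT1G44575), the PsbS protein that switches on heat dissipation of excess light, had 3 light-only clusters with 0.714% of its reads and none with as many as 1 Dark read to be seen at an unchanged share. ELIP1 (AT3G22840) had 560, 413 and 329 reads in Light against 0, 1 and 1 in Dark, and its light-only cluster held 5.03% ± 1.73 of them (SD, n = 3). Among the listed genes without a light-only cluster, 13 of 20 tested were higher in Light and 3 lower by edgeR, with a median log2 change of 1.18. Over all genes tested, 37.4% were higher and 35.6% lower. Of the 13, 1 passed the filter through Light alone. In LHCA6 (AT1G19150), also of the 13, only some Dark libraries reached the minimum. With library totals alone the counts for this list were 17 higher and 1 lower. LHCB3 (AT5G54270) rose 12.9-fold to 546 ± 8.98 CPM and LIL3:1 (AT4G17600), a light-harvesting-like protein of chlorophyll synthesis, 8.96-fold to 39.4 ± 2.14 (SD, n = 3; adjusted p = 1.35e-11 and 5.17e-10). LHB1B1 (AT2G34430) fell 2.44-fold (adjusted p = 1.63e-06). LHCB4.1 (AT5G01530) fell 1.53-fold (adjusted p = 1.03e-04), a call that was lost when counts were scaled by library totals alone (adjusted p = 0.160).

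Of 23 B-box genes, zinc-finger regulators of light responses, 1 held light-only clusters. BBX16 (AT1G73870) had 285, 299 and 270 reads in Light and 0, 0 and 1 in Dark. Its main site, at position 27780677 of chromosome 1, had 172, 166 and 131 reads, and a second cluster 39 nt downstream had 23, 41 and 32, so that 66.2% of its reads lay in clusters without a Dark read. Of 14 others tested, 5 were higher, 6 lower and 3 did not pass, with a median log2 change of -0.05, which is near the 37.4% higher and 35.6% lower of all genes. STH (AT2G31380) and LZF1 (AT1G78600; 3.78-fold) rose most, and BZS1 (AT4G39070; 10.9-fold) and COL5 (AT5G57660; 9.05-fold) fell most. For LZF1, BZS1 and COL5 the largest adjusted p was 1.76e-08 (edgeR). STH had 7.98 ± 0.871 CPM in Light against 1.37 ± 0.532 in Dark (SD, n = 3 each). It entered the test through Light, since not all Dark libraries reached the minimum.

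Expansins, which loosen the cell wall, held 6 light-only clusters in 4 of 19 listed genes. EXPA10 (AT1G26770) had 79, 55 and 55 reads at position 9261126 of chromosome 1, 59 nt upstream of its main site, and EXPA15 (AT2G03090) had 23, 34 and 49 at position 917046 of chromosome 2. EXPA5 (AT3G29030) had 22, 19 and 15 reads at its light-only cluster, 13.6% ± 3.34 of the gene (SD, n = 3), and EXPA1 (AT1G69530), the most read of the 4, had 19, 28 and 24 at a share of 0.218% ± 0.0215. None of these 6 clusters reached 3 Dark reads at an unchanged share. Of 11 tested expansins without one, 8 were higher and 2 lower, against 37.4% and 35.6% of all genes tested. In EXPA8 (AT2G40610), one of the 8, only some Dark libraries reached the minimum. Of the 8, 2 passed the filter through Light alone. One of these was EXPA17 (AT4G01630), with 5.29 ± 0.269 CPM against 0.0875 ± 0.0875 (SD, n = 3 each). EXPA6 (AT2G28950) rose 13.7-fold (adjusted p = 1.66e-09). EXPA16 (AT3G55500) fell 4.24-fold (adjusted p = 1.09e-06). EXPA20 (AT4G38210) had 0.615 ± 0.182 CPM in Light against 1.37 ± 0.181 in Dark (SD, n = 3 each). It entered the test through Dark, since not all Light libraries reached the minimum. Its call as lower was lost with library totals alone and with DESeq2.

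Of 26 listed cell division and DNA replication genes, 1 held a light-only cluster. This was MCM3 (AT5G46280), a subunit of the replicative helicase, with 23, 10 and 3 reads at position 18769804 of chromosome 5 and a share of 20.0% ± 15.5 (SD, n = 3). Light replicate 1 gave most of those reads. Of 15 tested genes without one, 14 were higher in Light and 0 lower, against 37.4% and 35.6% of all genes tested. The median log2 change was 2.45. Both the count of 14 and this median include MCM7 (AT4G02060), KNOLLE (AT1G08560) and CDKB1;1 (AT3G54180), in which only some Dark libraries reached the minimum. They also include 6 genes that passed the filter through Light alone, the next 2 genes among them. PCNA1 (AT1G07370), the sliding clamp of DNA polymerase, had 3.85 ± 0.903 CPM against 0.0292 ± 0.0506, and MCM2 (AT1G44900) had 2.80 ± 0.630 against 0.0858 ± 0.00316 (SD, n = 3 each).

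Of the marker lists for parts of the seedling, 1 gene held a light-only cluster. EPF2 (AT1G34245), a secreted peptide that limits stomatal lineage divisions, had 17, 14 and 17 reads at position 12473873 of chromosome 1, 120 nt downstream of its main site. This was 28.8% ± 5.20 of its Light reads (SD, n = 3), and 6.82 Dark reads would be seen at an unchanged share. Among stomatal markers without one, 2 of 8 tested were higher and 0 lower, against 37.4% and 35.6% of all genes tested. The 2 were TMM (AT1G80080; 1.38-fold, adjusted p = 0.00877, edgeR) and SPCH (AT5G53210), of which SPCH passed the filter through Light alone. Scaling by library totals alone raised the count of higher stomatal markers to 5. Of 8 tested root markers, 3 were higher, among them PYK10 (AT3G09260; 4.41-fold) and PHT1;1 (AT5G43350; 1.85-fold), and 0 lower; 3 of 8 is near the 37.4% higher among all genes. The root markers COBL9, RHD6, CASP2 and CASP5 had no assigned reads in any library. Summed over its list, the level of root markers was 6794 to 7948 CPM in the Light libraries and 1202 to 2151 in the Dark libraries, mostly PYK10, that of stomatal markers 41.4 to 44.0 and 26.6 to 35.0, and that of epidermis and phloem markers 100.1 to 117.3 and 94.4 to 111.4. Epidermis and phloem markers gave PDF1 (AT2G42840) higher by 1.67-fold, lost with DESeq2 (adjusted p = 0.133), and ATML1 (AT4G21750) lower by 1.47-fold, lost with library totals alone (adjusted p = 0.433). The part of root or stomatal cells in the light-only clusters was not tested. All genes together gave 6267 higher and 5966 lower calls, 51.2% upward. With library totals alone the counts were 8626 and 4014, or 68.2% upward, and the median log2 change moved from 0.04 to 0.50.

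Sites of genes read in both conditions were examined where 3 or more Dark reads would be seen at an unchanged share. These 124 clusters had 30 to 1160 Light reads, with a median of 39. Their genes had 10 to 48839 Dark reads with a median of 546, and the clusters held 0.0311% to 43.8% of the gene's Light reads, with a median of 1.90%. The Dark reads to be seen at an unchanged share had a median of 7.41 and a maximum of 61.4. In 17 the share was at least 10%, and in 45 it was under 1%. Of the 124, 122 lay in genes with more raw reads in Light than in Dark; the exceptions were EIF4A1 and ATSTE24. In CPM, 117 lay in genes higher in Light, and the 7 others also included those in CAO, AT5G19485, TBL14, AT4G38760 and AT2G37190. By edgeR, a stricter measure, 37.4% of all 16775 genes tested were higher in Light. The rule asks for Light reads and 0 Dark reads and so favours genes with more Light reads. Nothing is read from these counts. A cluster with at least 10 Dark reads lay within 50 nt of 45 of the 124, and at a median distance of 61.5 nt.

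The site with the most Dark reads to be seen was assigned to EIF4A1 (AT3G13920), the RNA helicase of the cap-binding complex. It lay at position 4594130 of chromosome 3, 1739 nt upstream of the gene's main site, and had 10, 13 and 13 Light reads. The gene had 10338, 13828 and 12325 Dark reads, so 61.4 reads would be seen at the Light share of 0.169% ± 0.0317 (SD, n = 3), whereas 0 were seen. By counting error alone, the share in Dark was at most 0.00822%. This limit, like those on Dark shares below, does not allow for the choice of clusters by 0 Dark reads and is not a strict bound. The Light libraries lay close together. Another cluster with at least 10 Dark reads lay 95 nt away on the same strand, so the stretch itself was not without reads in darkness. The profile of clusters assigned to EIF4A1 did not include that neighbour. Whether the light-only site is an end of EIF4A1 RNA was not tested, and the 61.4 reads rest on that assignment.

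Photosynthesis and chloroplast genes supplied 3 of the 12 sites with the most Dark reads to be seen. FNR2 (AT1G20020), the leaf ferredoxin-NADP reductase that ends the photosynthetic electron chain, had 86, 60 and 69 reads at position 6945056 of chromosome 1, 81 nt downstream of its main site. It held 5.75% ± 1.00 of the gene's Light reads (SD, n = 3), and its Dark share was at most 0.388%, since the gene had 269, 242 and 262 Dark reads. A second light-only cluster followed 25 nt further on, with 14, 12 and 11 reads. The site 40 nt downstream of the main one was read in both conditions, with 14.6% of Light and 8.02% of Dark reads, so the FNR2 profile reached further downstream in Light. In CAO (AT2G47450), the chloroplast signal recognition particle subunit that escorts light-harvesting proteins, the cluster at position 19474298 of chromosome 2 lay 200 nt downstream of the main site. It had 19, 15 and 9 reads, 0.711% ± 0.209 of the gene, against a limit of 0.0588% in Dark. DRT112 (AT1G20340), a plastocyanin, had 32, 36 and 27 reads at position 7042395 of chromosome 1, 208 nt downstream. With 48839 Dark reads over the gene, its Dark share was at most 0.00614%, against 0.0560% ± 0.00301 in Light, the most even share of the 12.

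Ribosomal protein genes supplied another 3 of the 12, each with a site about 100 nt past the main one. AT3G53740, for a protein of the large subunit, had 22, 13 and 28 reads at position 19913643 of chromosome 3 and 13400 Dark reads over the gene. Its share was 0.315% ± 0.110 in Light (SD, n = 3) and at most 0.0224% in Dark. AT2G34480, also of the large subunit, had 28, 25 and 24 reads at position 14532638 of chromosome 2, a share of 0.0878% ± 0.00929 against a limit of 0.00770%. The large-subunit gene emb2386 (AT1G02780) had 18, 14 and 12 reads at position 607801 of chromosome 1, a share of 0.230% ± 0.0371 against a limit of 0.0223%. All 3 lay 99 to 109 nt downstream of their main sites, and each Light library had at least 12 reads.

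The remaining 5 of the 12 included the site that varied most between libraries. TBL14 (AT5G64020), of a family that acetylates cell wall polymers, had 22, 10 and 4 reads at position 25620233 of chromosome 5, and the share of 15.3% ± 11.5 (SD, n = 3) fell with them. Its Dark share was at most 1.41%, below the lowest Light library at 4.76%. AT5G19485 had 17, 18 and 8 reads at position 6573554 of chromosome 5, 1.69% ± 0.701 against at most 0.136%. AT4G38760, a nucleoporin gene, had 19, 14 and 8 reads at position 18084724 of chromosome 4, 5.63% ± 1.73 against at most 0.518%. ATSTE24 (AT4G01320), a protease that trims prenylated proteins, had 15, 8 and 7 reads at position 549364 of chromosome 4, and J3 (AT3G44110), a DnaJ cochaperone, had 14, 8 and 16 at position 15868732 of chromosome 3. In each of the 12 sites the Dark limit lay below the lowest Light library's share. This order follows in part from the choice of clusters with 0 Dark reads.

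In 3 genes read in both conditions the light-only cluster was the gene's most read site, with 3 or more Dark reads to be seen; they were singled out by that property. IPMI1 ended most often at position 21797127 of chromosome 3 in Light, with 423, 394 and 343 reads, 31.1% ± 2.43 of the gene (SD, n = 3). In Dark its 13 reads fell on other sites, 6 of them on the cluster 62 nt downstream, which held 24.4% of the Light reads. NdhM (AT4G37925), a subunit of the chloroplast NADH dehydrogenase-like complex, ended at position 17830525 of chromosome 4 in Light with 110, 129 and 92 reads, 43.6% ± 4.25 of the gene. Its 20 Dark reads lay upstream of that site, 11 of them 73 nt upstream. FMO GS-OX2 (AT1G62540), a glucosinolate oxygenase, had 17, 12 and 11 reads at position 23155655 of chromosome 1, 38.5% ± 7.15 of the gene, and 10 Dark reads elsewhere. At such Dark depths the limits on the Dark share are wide: 23.1% for IPMI1, 15.0% for NdhM and 30.0% for FMO GS-OX2. The limit for FMO GS-OX2 was close to its Light share.

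**Figure D3:**
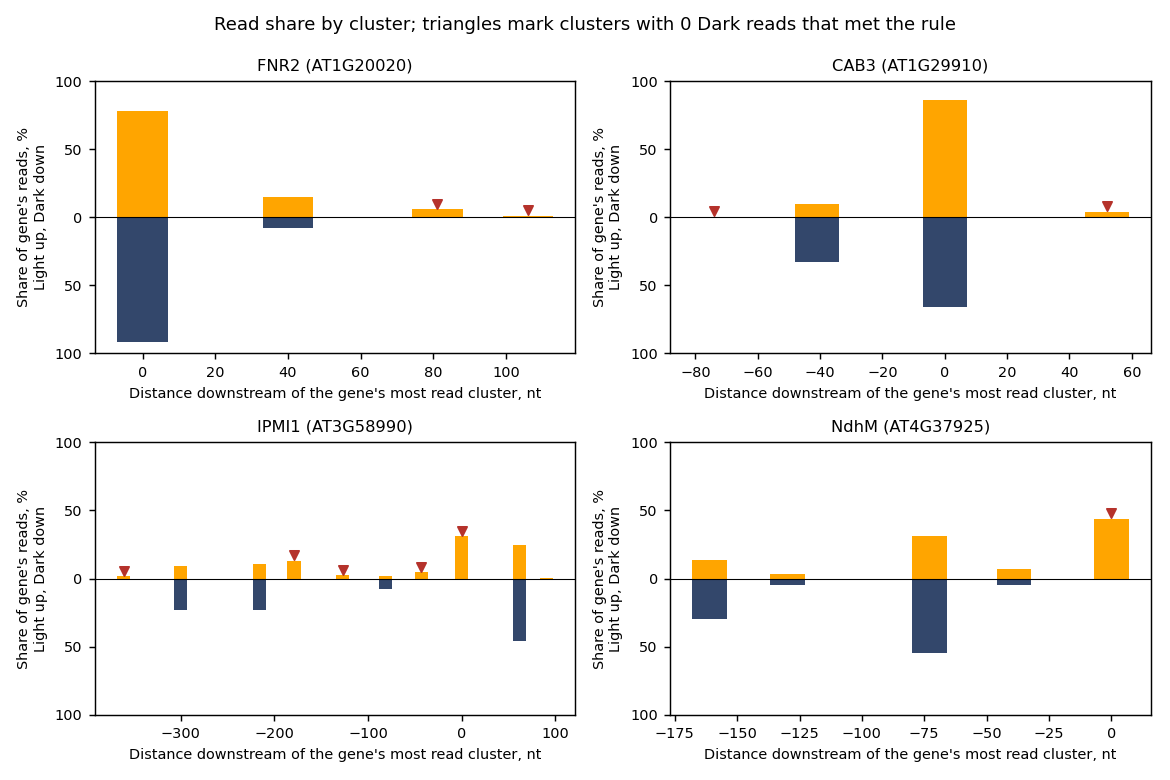
Share of each gene's reads by cluster, in percent, for FNR2, CAB3, IPMI1 and NdhM; orange bars above the line are Light and dark blue bars below it Dark, summed over 3 libraries each, and the horizontal axis is the distance in nt downstream of the gene's most read cluster. Red triangles mark light-only clusters, which lie at 81 and 106 nt in FNR2 and at -74 and 52 nt in CAB3. In IPMI1 they lie at -361, -179, -127 and -43 nt and at the most read site itself, and in NdhM at the most read site.

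Other sites with large shares were those of UGP2 (AT5G17310), a UDP-glucose pyrophosphorylase, with 19, 11 and 15 reads and 32.8% ± 8.88 of the gene (SD, n = 3), and TCL2 (AT2G30424), a single-repeat MYB that represses trichomes, with 16, 10 and 23 reads and 16.2% ± 4.42. Their genes had 11 and 32 Dark reads. Far from the main site lay 9 clusters: 5 more than 400 nt upstream and 4 more than 400 nt downstream. APX1 (AT1G07890), the cytosolic ascorbate peroxidase, had 11, 19 and 24 reads 1709 nt upstream of a main site with 27707 Dark reads. ROC2 (AT3G56070), a cyclophilin, had 9, 16 and 11 reads 776 nt upstream, and DEG1 (AT3G27925), a thylakoid protease, 33, 23 and 23 reads 1024 nt downstream. The annotation table used gives no exons or untranslated regions, so whether these sites are intronic or exonic is not stated. In 6 of the 124 clusters the highest Light library exceeded the lowest by at least a factor of 5, up to 16 for AT4G34910 with 15, 16 and 1 reads.

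Position was not part of the rule. Of the 121 clusters that were not the main site, 89 (73.6%) lay downstream of it and 32 upstream, at a median distance of 102 nt. Other clusters that were not the main site and had Dark reads lay downstream in 51.2% of 28447 cases, at a median distance of 57 nt. Because light-only clusters have few reads, the comparison was repeated for clusters with 30 to 60 Light reads and 3 or more Dark reads to be seen. Of 102 such light-only clusters 73 (71.6%) were downstream, at a median distance of 101 nt, against 4420 of 8793 other clusters (50.3%), at 65 nt. Light-only clusters still had fewer Dark reads to be seen, with a median of 7.35 against 32.1. The lean downstream was not shared by the 174 clusters with fewer than 3, of which 77 were downstream, 79 upstream and 18 the main site. No test was made of these counts, since clusters are not replicates.

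**Figure D4:**
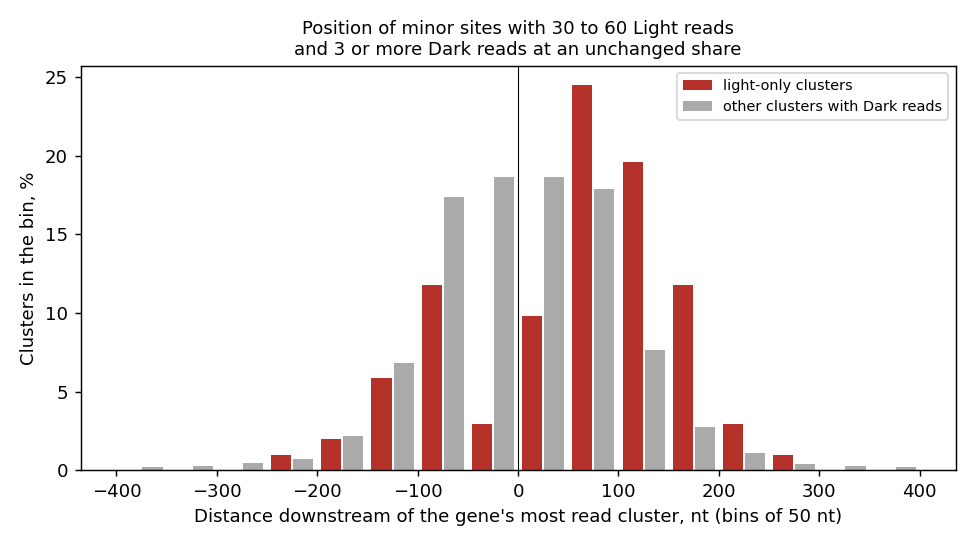
Percent of clusters in bins of 50 nt of distance downstream (positive) or upstream (negative) of the gene's most read cluster, for the 102 light-only clusters (red) and 8793 other clusters (grey) with 30 to 60 Light reads and 3 or more Dark reads at an unchanged share. The red bars are highest at 50 to 100 nt (24.5%) and 100 to 150 nt (19.6%), where the grey bars reach 17.9% and 7.67%.

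The other reads of the same genes were then compared, leaving the light-only clusters out. For each gene with at least 20 such reads in every library, the percentage lying downstream of the most read cluster was computed per library. This could be done for 69 genes with a downstream light-only cluster and 3 or more Dark reads to be seen. In 46 of them all Light libraries lay above all Dark libraries, in 3 all lay below, and in the others they overlapped. Over all 12989 genes measured, 35.7% were higher without overlap and 5.17% lower, so the direction was common in this dataset. The median difference, Light minus Dark, was 3.91 percentage points in the 69 genes and 1.43 points in the 12877 genes without a light-only cluster. These reads come from the same libraries as those of the rule, and no test was made.

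GDC1 (AT1G50900), which guides light-harvesting proteins into the chloroplast, showed the widest gap of the 69 genes, with 32.9%, 36.1% and 33.9% of its other reads downstream in Light and 10.6%, 13.1% and 9.17% in Dark. ATPD (AT4G09650), the delta subunit of the chloroplast ATP synthase, had 31.1%, 29.0% and 30.2% in Light against 11.5%, 10.3% and 9.12% in Dark. FNR2 had 16.3%, 15.2% and 15.5% against 8.55%, 8.68% and 6.87%, and DRT112 had 9.37%, 10.7% and 11.1% against 4.49%, 5.45% and 4.70%. All 4 had Light libraries clear of the Dark ones. The 3 genes that went the other way were PIP1;4 (AT4G00430), an aquaporin, at 37.8% in Light and 53.1% in Dark on average, FIB (AT4G04020), a plastid fibrillin, at 32.9% and 37.3%, and YLMG1-1 (AT3G07430) at 44.1% and 46.5%.

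**Figure D5:**
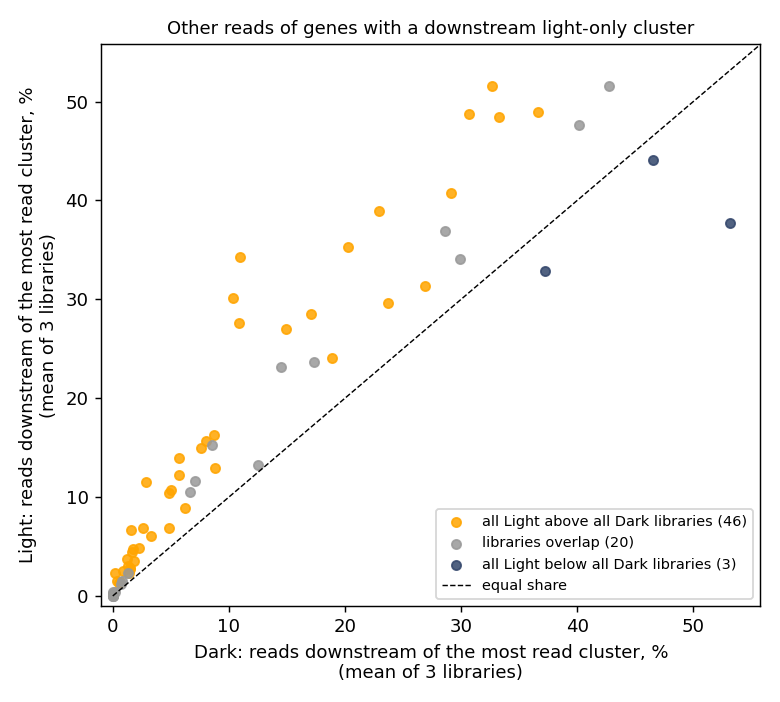
Each point is 1 of the 69 genes with a downstream light-only cluster and 3 or more Dark reads at an unchanged share; the axes give the percent of its other reads that lie downstream of its most read cluster, as the mean of 3 Dark libraries (horizontal) and of 3 Light libraries (vertical). Orange points are the 46 genes whose Light libraries all exceed the Dark ones, grey the 20 that overlap and blue the 3 below; the dashed line marks equal shares.

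Outside resolved protein-coding genes the 40 light-only clusters were 11 intergenic, 9 in noncoding genes or pseudogenes, 9 at genes whose strand was not resolved, 6 within 50 nt of small RNA genes, 3 antisense to a gene and 2 shared by a pair of genes. The largest were intergenic, on chromosome 5: position 5449846 of the plus strand had 30, 44 and 46 reads, and position 23682605 of the minus strand had 43, 34 and 35. Another intergenic cluster lay 198 nt upstream of the first, with 15, 9 and 23 reads. Of clusters near small RNA genes, the 2 most read lay at position 19981739 of chromosome 1 (32, 19 and 33 reads) and position 22054725 of chromosome 3 (16, 9 and 13). Among noncoding genes, AT2G04852 had 30, 27 and 19 reads at position 1705803 of chromosome 2 and AT1G16635 had 21, 14 and 28 at position 5685889 of chromosome 1.

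At genes of unresolved strand, BRG2 (AT1G79110), a RING-type ubiquitin ligase, had 25, 14 and 16 reads at position 29760694 of chromosome 1, and AT2G37100 had 11, 22 and 11 at position 15592174 of chromosome 2. Opposite AT5G42765, position 17150262 of chromosome 5 had 17, 16 and 10 reads, and opposite AT1G78210, position 29422723 of chromosome 1 had 10, 14 and 11. The 2 clusters shared by neighbouring genes were at position 25750797 of chromosome 5, between AT5G64400 and AT5G64401 (20, 12 and 8 reads), and at position 21444285 of chromosome 3, between AT3G57910 and AT3G57920 (14, 10 and 8).

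The dark-only clusters found by the same rule turned round offer a comparison. Of the 65, 30 lay in protein-coding genes, and in none of these was the gene silent in Light. In 8 of the 30, 3 or more Light reads would be seen at an unchanged share. Of the 23 that were not the gene's main site, 7 lay downstream of it. These 23 were not limited to 3 or more reads to be seen, unlike the light-only clusters that leaned downstream.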

How the data were processed

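RNA of 3 Light and 3 Dark seedling samples was sequenced by 3'READS+. The deposited table gives, for each poly(A) site cluster, the raw read count of each library, as whole numbers. Per the submitters' processing notes, Bowtie2 and the build TAIR10 were used; the notes give neither versions nor roles. The clustering rule, read filter, handling of duplicate reads and convention for positions were not given in the sources used here, and positions are printed as in the table. Floors (3 counts over the Dark group), and the limits on Dark shares taken from them, cover counting error only. They do not allow for the choice of clusters by 0 Dark reads. All 6 count columns were matched to samples by title, and 0 sample columns were unused.

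Gene names and neighbours came from a RefSeq table on the assembly TAIR10.1 with 27444 protein-coding genes of the nucleus; it holds neither strand nor exons. The strand of a gene was taken from reads near its ends (100 nt outside, and 300 nt or 50% of the gene inside; at least 20 reads, 90% on 1 strand), which resolved 18409 genes, left 683 ambiguous and 8352 with too few reads. Clusters in the gene or up to 200 nt past it were assigned to it. Within each chromosome strand, 31.0% to 45.5% of reads lay within 100 nt of a gene end.

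Gene counts were tested with edgeR 4.0.16 in R 4.3.3 (quasi-likelihood F-test, TMM, filterByExpr with minimum count 10 and minimum total 15, Benjamini-Hochberg, threshold 0.05), for listed genes without a light-only cluster. Tested on simulated data for this comparison (16535 genes), the script recovered 87.8% of genes changed by 1 and 100% of those changed by 2 on the log2 scale, with 9 false calls. Only 98 and 96 genes were changed there, up and down alike, with the same dispersion for every gene. In the data 72.9% of genes tested were called, so the simulation gives no error rate for them. DESeq2 1.42.0, scaling by library totals alone, no filter, a replicate block and each library left out were tried as alternatives, and for the clusters other minimum reads, 1 Dark read allowed, summed neighbours, a wider reach and a looser meaning of silent. An alternative on the source of gene strand was not run, since the table gives no strand. Tables and figures were made in Python 3.11.15 with pandas 2.3.3 and matplotlib 3.10.9.

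Same-numbered Light and Dark libraries did not deviate together (correlations 0.0549, -0.00829 and 0.0874), so numbers were not taken as pairs. Replicates of a group differed by more than sampling noise (chi-square per degree of freedom 6.24 to 26.9). Named by rule were the 12 silent genes with the most Light reads, the 12 sites with the most Dark reads to be seen at an unchanged share (1 a gene), every listed gene with a light-only cluster, the 2 most read clusters of each class outside genes, and per list the 2 largest called changes each way. Genes outside this rule were named after their values had been seen: the further silent genes, the main-site clusters, and the sites with large shares, far positions or wide gaps. The clusters, lists and tests were chosen with earlier results of these data known, and the held-out libraries, matched positions and downstream shares were added after the values had been seen.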

Additional observations from a re-analysis of the deposited data

How the results depend on the processing

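The number of light-only clusters (382) was 740 with a minimum of 20 Light reads, 156 with 50, 725 with 1 Dark read allowed and 141 after neighbours within 50 nt were summed, and 188 to 643 when 1 library was left out. For the same minimums of 20 and 50 reads, clusters of silent genes (44) numbered 72 and 25, silent genes with such a cluster (39) 62 and 23, clusters of genes read in both (298) 576 and 122, and those with 3 or more Dark reads to be seen (124) 255 and 30. Leaving out 1 library gave 28 to 87, 25 to 65, 147 to 483 and 47 to 210 for these 4 counts. With up to 3 Dark reads allowed in a silent gene, there were 84 clusters in 70 genes; a reach of 500 nt past the gene gave 43 clusters. The counts grow when a Dark library is left out and shrink when a Light library is, because the rule then asks for fewer zeros or keeps the same minimum with fewer reads.

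In the gene test, the replicate block gave 6211 genes higher and 5884 lower against 6267 and 5966, moved no count of listed genes by over 1.5 times, and is given here once because the replicate numbers do not pair the samples. DESeq2 gave 5901 and 5794, and leaving out 1 library 5879 to 6310 and 5606 to 6033. Of 280 values for 28 named genes over the alternatives, 271 kept direction and call, 9 lost the call and 0 reversed. Those 9 belong to LHCB4.1, EXPA20, PDF1 and ATML1. The 28 include genes that passed the filter through Light alone, MYB28 and PCNA1 among them. Others entered the test through the libraries of 1 group, such as TT4, STH and EXPA20. The filter favoured a difference in such genes, so their kept calls are no independent check. The causes were not tested. Of 200 counts of listed genes over the alternatives, 186 stayed within 1.5 times and 14 moved by more. Of the 382 clusters, 156 had 30 to 39 reads over 3 libraries.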

Other observations

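Some genes on none of the lists held several light-only clusters or well-read ones. RBCS1B (AT5G38430), a small subunit of Rubisco, held 4 of them with 430 reads, 2.61% of a gene with 3847, 7484 and 5160 reads in Light and 34, 43 and 60 in Dark. Its family members are near-identical, so the division of reads among them is uncertain. SAHH2 (AT3G23810), an S-adenosylhomocysteine hydrolase of the methylation cycle, held 3 with 199 reads, 1.28% of the gene. EXPB3 (AT4G28250), a beta-expansin, held 3 with 287 reads and had 897, 713 and 672 reads in Light against 2, 3 and 2 in Dark. SQP1 (AT5G24150), a squalene epoxidase-like gene, had 126, 114 and 95 reads at position 8172403 of chromosome 5, 61.0% of its Light reads, in a gene with 4 Dark reads. These genes were chosen after their values had been seen.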
